A study of Caenorhabditis elegans with 6 samples.

Results

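The genes described here are 10 skr (Skp1-related) genes of the nematode Caenorhabditis elegans: skr-1, skr-3, skr-4, skr-5, skr-7, skr-8, skr-9, skr-10, skr-13 and skr-14. They were found through the array platform's annotation, as the 11 probe sets assigned to 1 of these symbols alone, out of 22548 probe sets for 17118 named genes. Transcript levels came from 6 single-colour arrays of whole animals, 1 array for each of 6 groups. The groups were octopamine-treated and untreated animals of a daf-16(mu86) mutant, of a strain with both ser-3(ok2007) and ser-6(tm2146), called the receptor mutant here, and of the wild type N2, which is also the background of both mutants. Animals grew for 3 days and then spent 2 days on plates with 20 mg/mL octopamine or with none. The labels call the animals day 4 adults, while the extraction notes call them 5 days old. No label says how many cultures went into an array.

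Skp1 proteins are the adaptors of SCF ubiquitin ligases. In these complexes a cullin binds a RING protein that recruits the ubiquitin-conjugating enzyme, and the Skp1 protein joins the cullin to an F-box protein, which picks the substrate. Yeast and humans have a single main SKP1 gene, whereas the worm has a family of skr genes. SKR-1 works with the cullin CUL-1 in embryos and germline, and SKR-3, SKR-4 and SKR-5 work with CUL-6 in the worm's response to intracellular pathogens. Octopamine is the invertebrate counterpart of noradrenaline, SER-3 and SER-6 are receptors for it, and DAF-16 is the worm's FOXO transcription factor. The series title names octopamine, stress resistance and DAF-16 as its subject.

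The members had been picked for their pattern of octopamine change against the untreated level in each strain, so those values are given below as a description, with no test. Each group was 1 array, and a ratio of 1 array to another has no replicate behind it. Array medians ranged from 23.77 to 25.96 in intensity, a spread of 0.13 on the log2 scale, and each array's median was therefore subtracted before ratios were taken. Of 4 daf-16 probe sets, all were lower in the daf-16 mutant than in N2, by log2 differences of -2.78 to -0.37 over both treatments. The single ser-3 probe set was dim, at 17.7 and 18.2 in the receptor mutant with and without octopamine, against 25.7 and 22.3 in N2. Whether these probe sets lie inside the deletions was not known here, so they check the labels only in part. Of the 10 members, 9 passed a filter on low values, a mean over the arrays at or above the 40th percentile of probe sets. The exception was skr-5.

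Of the 10 members, skr-7, skr-8, skr-9, skr-10, skr-13 and skr-14 had a common shape: lowest on the untreated N2 and untreated daf-16 arrays, and high in the receptor mutant with or without octopamine. In N2 their octopamine-to-untreated log2 ratios ran from 0.49 to 0.94, with a median of 0.67. In daf-16 animals the ratios were smaller, 0.17 to 0.42 with a median of 0.38. In the receptor mutant they lay between -0.36 and 0.17, with a median of -0.08. RNA came from whole animals, in which a change in the number of cells of a type and a change in RNA per cell cannot be told apart.

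**Figure D1:**
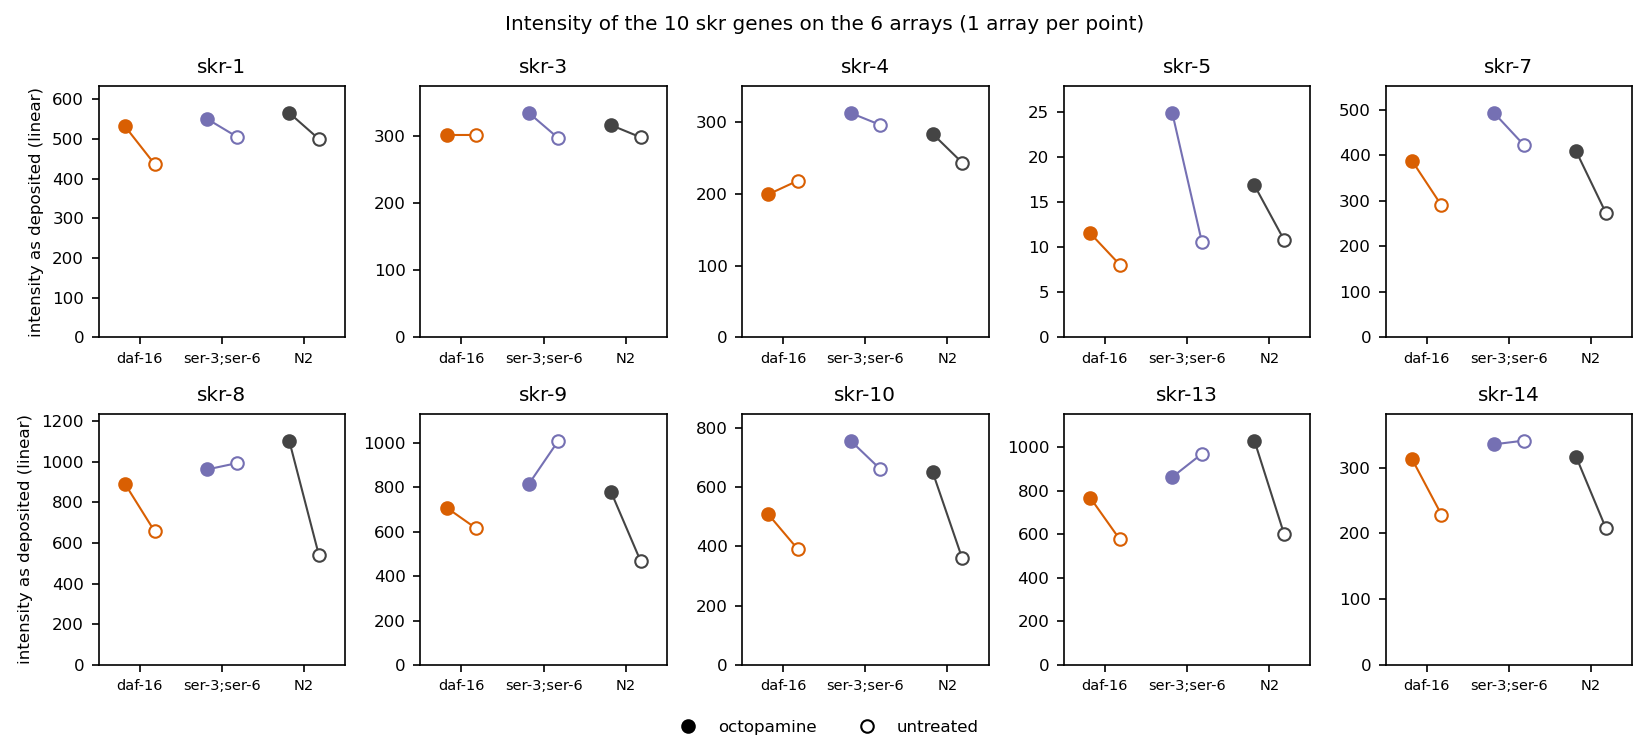
Intensity as deposited (linear scale, each axis from 0) of the 10 skr genes in the daf-16 mutant, the ser-3;ser-6 receptor mutant and N2, with 1 array per point. Filled points are octopamine-treated and open points untreated animals, joined within a strain. In the panels of skr-7 to skr-14 the untreated receptor mutant array lies above the untreated N2 array.

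The gene skr-8 had the largest octopamine ratio in N2. Its intensity was 892 with octopamine and 658 without in daf-16 animals, 962 and 993 in the receptor mutant, and 1104 and 543 in N2. The treated N2 array was the highest of the 6 and the untreated N2 array the lowest. The N2 ratio corresponds to 1.91-fold, against 1.32-fold in daf-16 animals and 0.937-fold in the receptor mutant. A second probe set for skr-8 gave log2 ratios of 0.40 in daf-16 animals, -0.05 in the receptor mutant and 0.89 in N2, close to the 0.40, -0.09 and 0.94 of the first.

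The gene skr-9, the coding gene next to skr-8, had intensities of 709 with octopamine and 615 without in daf-16 animals, 815 and 1011 in the receptor mutant, and 781 and 469 in N2. Here the untreated receptor mutant array was the highest of the 6, and treated animals of that strain were lower by a log2 ratio of -0.36. In N2 the ratio was 0.65.

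Next to skr-9 lies skr-13, with intensities of 768 and 577 in treated and untreated daf-16 animals, 863 and 969 in the receptor mutant, and 1030 and 602 in N2. Its log2 ratios were 0.38, -0.22 and 0.68 in that order of strains. As with skr-8, the treated N2 array was the highest. The untreated daf-16 array was the lowest, with the untreated N2 array just above it.

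The genes skr-10 and skr-7 are read by probe sets without the suffix that marks probes matching more than 1 transcript. RNA interference against skr-7, skr-8, skr-9 or skr-10 is known to slow growth. The intensity of skr-10 was 508 and 390 in treated and untreated daf-16 animals, 757 and 662 in the receptor mutant, and 651 and 360 in N2. Both receptor mutant arrays exceeded both arrays of daf-16 and of N2. The log2 ratios of skr-10 were 0.34 in daf-16 animals, 0.15 in the receptor mutant and 0.77 in N2.

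For skr-7 the treated and untreated intensities were 388 and 290 in daf-16 animals, 493 and 423 in the receptor mutant, and 409 and 274 in N2. The order of its arrays from highest to lowest was the same as for skr-10. Its log2 ratios were 0.38, 0.17 and 0.49, the narrowest range over strains among the 6 genes. Its neighbour skr-14 had intensities of 313 and 228 in daf-16 animals, 335 and 341 in the receptor mutant, and 316 and 208 in N2. The ratios of skr-14 were 0.42, -0.07 and 0.51, so treated N2 animals, treated daf-16 animals and both receptor mutant arrays stood close together, above the other arrays.

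All 6 of these genes had the order N2 above daf-16 above the receptor mutant in their octopamine ratios, and none of the other members did. The order is not particular to them within the family, since skr-11, skr-15, skr-17 and skr-21, which are not members, had it too. So did a probe set of skr-19 other than the one that stood for that gene. That order held for 22.1% of the 10251 genes that passed the filter. At least 1.5-fold higher with octopamine were 0 of 10 members in daf-16 animals, 1 in the receptor mutant and 4 in N2, where the shares of all genes past that size were 2.88%, 4.49% and 4.4%. The fold of 1.5 was chosen after the values were seen, and the members had been picked on this contrast, so nothing is read from these counts. The median ratios over all 10 members were 0.36, 0.05 and 0.53 in the same order of strains, beside -0.07, -0.07 and -0.06 over all genes. The ratios of skr-8 and skr-14 in the receptor mutant are near 0 and turned positive after quantile normalization, at 0.01 and 0.06, whereas those of skr-9 and skr-13 remained negative there, at -0.25 and -0.12.

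**Figure D2:**
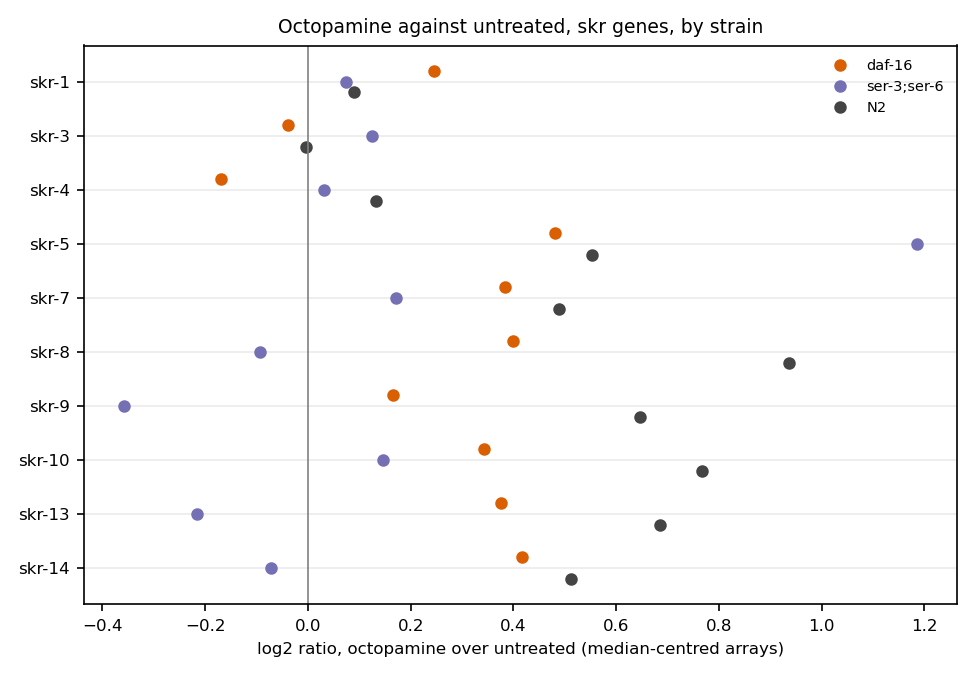
Log2 ratio of octopamine-treated over untreated animals for each skr gene (horizontal axis, arrays centred on their medians), with 1 point for each strain. For skr-7 to skr-14 the N2 point lies furthest right and the receptor mutant point furthest left, and skr-5 has its highest ratio in the receptor mutant.

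The remaining 4 members did not share that shape. The gene skr-1 had intensities of 532 and 437 in treated and untreated daf-16 animals, 550 and 506 in the receptor mutant, and 566 and 500 in N2. Treated arrays were the higher ones in each strain, by log2 ratios of 0.25, 0.07 and 0.09. Its probe set has the suffix for probes that match several transcripts. Its neighbour skr-2, a close relative that is no member, is read by a probe set without a suffix and had -0.11, -0.05 and 0.03.

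Of the genes tied to CUL-6, skr-3 was nearly level across the arrays. Its intensity was 301 on both daf-16 arrays, 334 and 297 in the treated and untreated receptor mutant, and 316 and 298 in N2. Its ratios of -0.04 in daf-16 animals and 0.00 in N2 became 0.09 and 0.11 after quantile normalization, so they have no settled sign. The gene skr-4 had 199 and 218 in daf-16 animals, 313 and 296 in the receptor mutant, and 284 and 243 in N2. Both daf-16 arrays were thus its lowest, and the ratios were -0.17, 0.03 and 0.13. A probe set that matches both skr-3 and skr-4 was assigned to neither and had ratios of 0.08, 0.25 and 0.23.

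The dimmest member was skr-5, whose intensities were 11.5 and 8.04 in treated and untreated daf-16 animals, 24.9 and 10.6 in the receptor mutant, and 16.8 and 10.8 in N2. Its log2 ratios of 0.48, 1.19 and 0.55 are uncertain in size, because the filter on low values stood at an intensity of 15.6. All 3 treated arrays were above all 3 untreated ones, but by little: the treated daf-16 array had 11.5 and the untreated N2 array 10.8, both under the filter value. With 16 added to each intensity before taking logs, its mean ratio over strains came to 0.33 in place of 0.74.

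The 6 similar genes fall into runs along the chromosomes, by the gene order of RefSeq assembly WBcel235. The genes skr-13, skr-9 and skr-8 are consecutive coding genes, followed by skr-12, and skr-14 is next to skr-7, while skr-10 stands alone. The probe sets of skr-8, skr-9 and skr-13 have the suffix _x, and those of skr-14 and skr-1 the suffix _s, for probes that match several transcripts. Signals of these genes may therefore mix. The gene skr-12 had no probe set of its own, and a probe set shared by skr-12 and skr-13 gave octopamine ratios of 0.12 in daf-16 animals, -0.28 in the receptor mutant and 0.55 in N2. The part of shared probes in the common shape was not tested. Centred on its own mean over the 6 arrays, each of the 6 genes differed from the others by a root mean square of 0.08 to 0.19 on the log2 scale (15 pairs), a closeness for which they were put together here.

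Coding genes beside these runs gave dim signals. On the skr-12 side C52D10.3 had intensities of 14.6 to 16.2 over all arrays, and str-268, a predicted chemoreceptor on the other side, 11.8 to 16.2. In daf-16 animals, the receptor mutant and N2, C52D10.3 had ratios of -0.15, -0.05 and -0.07 and str-268 of -0.22, -0.23 and -0.16. Beside skr-14 and skr-7, Y47D7A.2 had -0.21, 0.13 and 0.20, and Y47D7A.9 had -0.19, 0.27 and -0.29. Beside skr-10, Y105C5B.11 had 0.17, 0.19 and -0.10. The gene ifas-3, next to skr-10, had ratios of 0.56 in daf-16 animals, -0.03 in the receptor mutant and 0.63 in N2, at intensities of 18.7 to 33.2. Its change over strains of 0.39 ± 0.15 (SE) did not pass, with a Benjamini-Hochberg adjusted p of 0.0965 in limma.

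Each mutant was then set against N2. Untreated receptor mutants had more skr-9 transcript than untreated N2 by a log2 difference of 1.03, or 2.04-fold. The other genes of the group were higher in the same comparison by 0.80 for skr-10, 0.79 for skr-8, 0.63 for skr-14, 0.61 for skr-13 and 0.55 for skr-7. With octopamine in both strains the differences were 0.02, 0.18, -0.24, 0.05, -0.29 and 0.23 in the same order of genes. These values restate, from the side of the strains, the octopamine ratios by which the members were picked, and are given as a description. Of the 10 members, 5 were at least 1.5-fold higher in the untreated receptor mutant, a size passed by 1.85% of genes, and 0 with octopamine, where 2.25% of genes passed it. The same arrays enter the octopamine ratios of these strains, so nothing is read from these counts. Untreated daf-16 minus untreated N2, whose arrays also enter such ratios, ran from -0.11 to 0.34 for the 6 genes, with a median of 0.08. With octopamine in both, daf-16 minus N2 ran from -0.42 to -0.01 for these genes, with a median of -0.22.

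The difference between strains in the octopamine ratio itself had no test, since it rests on 4 arrays without replicates. Receptor mutant minus N2, it was -1.03 for skr-8, -1.004 for skr-9, -0.90 for skr-13, -0.62 for skr-10, -0.58 for skr-14 and -0.32 for skr-7. For daf-16 minus N2 the same genes had -0.54, -0.48, -0.31, -0.42, -0.09 and -0.10. Both sets share the N2 arrays. The medians of all genes were -0.02 in either comparison.

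**Figure D3:**
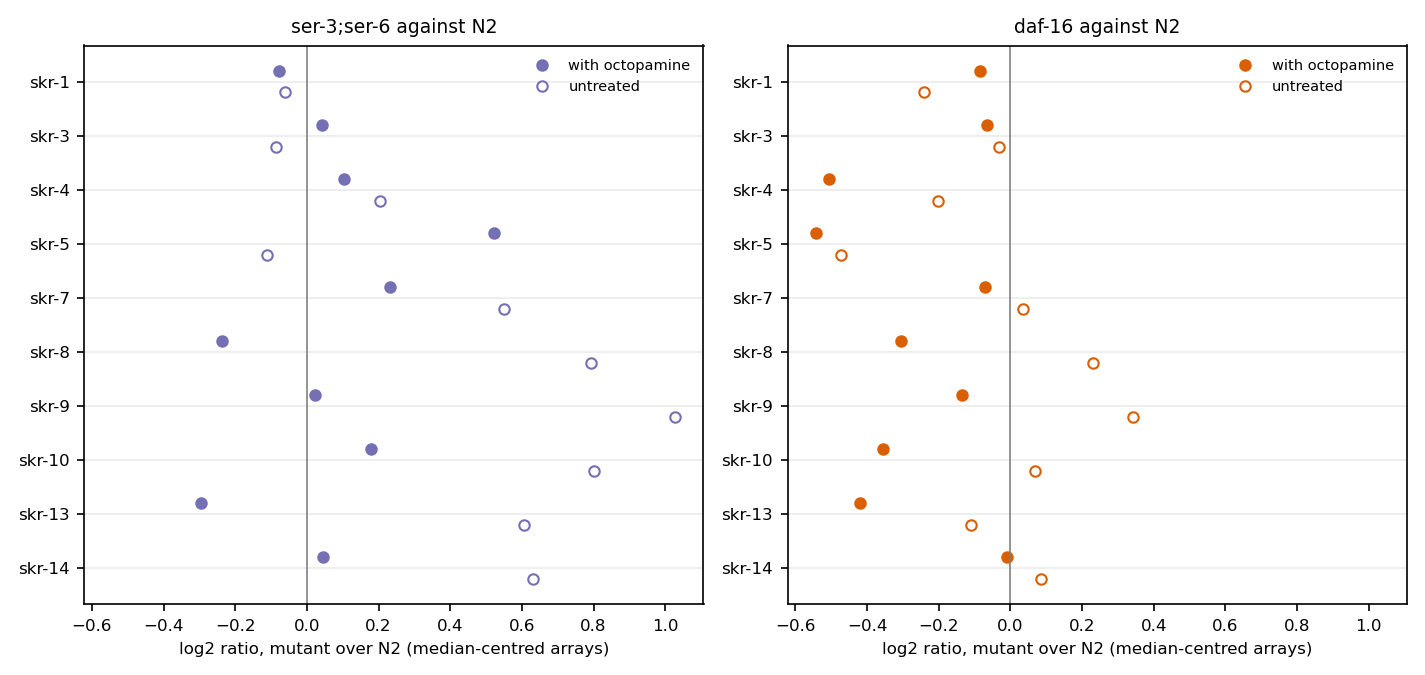
Log2 ratio of each mutant over N2 for the 10 skr genes (horizontal axis, median-centred arrays), with filled points for octopamine-treated and open points for untreated animals. In the ser-3;ser-6 panel the open points of skr-7 to skr-14 lie between 0.55 and 1.03 and the filled ones between -0.29 and 0.23, while in the daf-16 panel the open points of these genes lie between -0.11 and 0.34.

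A test of strain was available from all 6 arrays together, in an additive model with terms for strain and octopamine, in which the 2 treatments of a strain stand in for replicates. It leaves 2 residual degrees of freedom, and a strain difference confined to untreated animals counts in part as error. Members were picked by octopamine ratios from these same arrays, so their p-values below are a description and nothing is read from them. In the receptor mutant against N2, 0 of 9 members tested passed an adjusted p of 0.05, where 2.62% of all genes did, and 3 had an unadjusted p under 0.05, where 21.6% of all genes did. Those 3 were skr-9 at 0.53 ± 0.20, skr-10 at 0.49 ± 0.14 and skr-7 at 0.39 ± 0.11 (log2, SE), with limma adjusted p-values of 0.173, 0.109 and 0.105. Without the daf-16 arrays, 2 members passed, skr-9 with an adjusted p of 0.0183 and skr-10 with 0.0214 by limma, in a fit where 6.7% of all genes passed. That fit has 1 residual degree of freedom, against 47.3 prior ones taken from the spread of all genes, and the SE of skr-9 is 0.15 there although its difference was 1.03 in untreated and 0.02 in treated animals. The fitted differences of skr-1 and skr-3 were -0.07 ± 0.10 and -0.02 ± 0.11.

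In the daf-16 mutant against N2, 0 of 9 members passed, as against 0.244% of all genes, and 1 had an unadjusted p under 0.05, as against 6.21%. That gene was skr-4, lower in daf-16 animals at both treatments, with a fitted difference of -0.35 ± 0.12 (SE, limma, adjusted p = 0.592). Its log2 differences were -0.51 with octopamine and -0.20 without. The fitted differences of the other members tested lay between -0.26, for skr-13, and 0.10, for skr-9.

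Among the skr genes that are not members, a neighbouring trio rose with octopamine. By the same additive model, whose error is how far the strains differ in their octopamine change, 3 of 8 tested rose and 2 fell, beside 7.37% and 14.7% of all genes. Members were taken from this family with its octopamine changes known, so these counts describe what was left over. The trio skr-20, skr-19 and skr-21 are consecutive coding genes. The intensity of skr-21 was 159 and 84.3 in treated and untreated daf-16 animals, 192 and 128 in the receptor mutant, and 166 and 77.9 in N2. It rose by 0.80 ± 0.12 (log2, SE, limma, adjusted p = 0.00352), higher in 3 of 3 strains. The genes skr-19 at 0.70 ± 0.08 and skr-20 at 0.55 ± 0.10 rose too, each in 3 of 3 strains. The probe sets used for skr-20 and skr-21 have the suffix _s, so signals of these neighbours may mix. With probe sets without a suffix only, skr-21 had a fitted change of 0.90, and skr-20 had no such probe set.

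For skr-19 the ratios in the receptor mutant and in N2 were 0.63 and 0.70. A second, dimmer skr-19 probe set gave 1.07 in daf-16 animals, 0.95 in the receptor mutant and 1.56 in N2, so the size of its change depends on the probe set. The gene skr-15 was not called, yet its intensities resembled those of skr-7 and its group: 356 and 321 in treated and untreated daf-16 animals, 451 and 471 in the receptor mutant, and 412 and 270 in N2. In the untreated receptor mutant it exceeded untreated N2 by 0.72. The same difference was 0.64 for skr-21, 0.59 for its other probe set and 0.90 for the second skr-19 probe set. The first skr-19 probe set and those of the remaining skr genes outside the members ran from -0.24, for skr-16, to 0.03, for skr-11. The gene skr-15 is named here after its values were seen.

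The 2 that fell were skr-11, which RefSeq lists as a pseudogene, at -0.85 ± 0.22 (SE), and skr-17 at -0.32 ± 0.10 (SE). Without the receptor mutant arrays, where its ratio was -1.60, skr-11 had a change of -0.47. The intensity of skr-11 was 43.5 and 67.2 in treated and untreated daf-16 animals, 20.7 and 60.6 in the receptor mutant, and 49.3 and 56.3 in N2. The call of skr-17 was lost without the N2, the daf-16 or the receptor mutant arrays, with adjusted p-values of 0.0739, 0.0831 and 0.0818 by limma. It was lost too without centring (0.0966), after quantile normalization (0.181, with a change of -0.19), with a pseudocount of 16 (0.0563), with no filter (0.0583) and without the mean-variance trend (0.0729).

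The partners of the Skp1 proteins come next. For all lists that follow, the shares to set beside are the 7.37% of all genes that rose and the 14.7% that fell. Of 8 cullins and RING subunits 1 rose and 1 fell, with median octopamine ratios of -0.16, -0.15 and -0.16 in daf-16 animals, the receptor mutant and N2. The gene that rose was cul-6, the cullin that works with SKR-3, SKR-4 and SKR-5. It was read by a probe set with the suffix _s, and was not among the genes tested with probe sets without a suffix only. Its intensity was 61.7 and 47.9 in treated and untreated daf-16 animals, 83.9 and 57.5 in the receptor mutant, and 73.3 and 51.1 in N2. The treated array was the higher one in 3 of 3 strains, and the rise was 0.42 ± 0.11 (log2, SE, limma, adjusted p = 0.0302). It did not pass without the N2 arrays (adjusted p = 0.133, limma) or without the daf-16 arrays (adjusted p = 0.0746, limma).

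The main SCF cullin cul-1 had 324 and 325 in treated and untreated daf-16 animals, 334 and 338 in the receptor mutant, and 321 and 278 in N2. Its fitted change of 0.00 ± 0.09 (SE) did not pass. That probe set has the suffix _s, and with probe sets without a suffix only the change was -0.10 ± 0.13 (SE), which did not pass either. The gene that fell was cul-5, a cullin of another ligase class, at -0.52 ± 0.09 (SE), lower in 3 of 3 strains, and without the N2 arrays its adjusted p was 0.0557 by limma. The RING subunits rbx-1 and rbx-2 had fitted changes of -0.22 and -0.26 and did not pass.

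Cullins are switched on by attachment of the ubiquitin-like protein NED-8 and switched off by the COP9 signalosome, which removes it. Of 5 tested genes of neddylation and the cullin exchange factor cand-1, 0 rose and 1 fell: ula-1, part of the NED-8 activating enzyme, at -0.32 ± 0.09 (SE), while ned-8 itself had a fitted change of -0.19 and did not pass. Of 7 signalosome genes tested, 0 rose and 1 fell, csn-4 at -0.46 ± 0.09 (SE), and csn-1 at -0.28 did not pass. Without the N2 arrays csn-4 had an adjusted p of 0.0588 and ula-1 of 0.11 by limma, and without the daf-16 arrays ula-1 had 0.0538. The call of ula-1 was lost as well without centring (0.069), after quantile normalization (0.139, with a change of -0.20) and without the mean-variance trend (0.0568).

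Of 11 characterised F-box substrate receptors, 0 rose and 3 fell (14.7% of all genes fell): mec-15, which acts in touch neurons, at -0.41 ± 0.10, sel-10, the Notch regulator, at -0.30 ± 0.08, and fog-2, needed for sperm in hermaphrodites, at -0.28 ± 0.08 (SE). The first gene of the list, lin-23, had a fitted change of -0.16 ± 0.08 (SE) and did not pass. Median octopamine ratios of the list were -0.17, -0.22 and -0.11 in daf-16 animals, the receptor mutant and N2. After quantile normalization, which moved the median of all genes up by 0.06 to 0.08, the 3 falls no longer passed, with adjusted p-values of 0.0689 for mec-15, 0.112 for sel-10 and 0.236 for fog-2 by limma. Without centring sel-10 had 0.0726 and fog-2 0.114, and without the mean-variance trend they had 0.0835 and 0.0662. The call of fog-2 was lost also with a pseudocount of 16 (0.0601) and with no filter (0.0649). Without the N2 arrays sel-10 had 0.128 and fog-2 0.152, without the daf-16 arrays fog-2 had 0.228, and without the receptor mutant arrays sel-10 had 0.0555 by limma. Of the 4 tested genes for ubiquitin, its activating enzyme and an SCF-type conjugating enzyme, 0 passed. The ubiquitin gene ubq-1 had a fitted change of -0.04 ± 0.09 (SE).

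**Figure D4:**
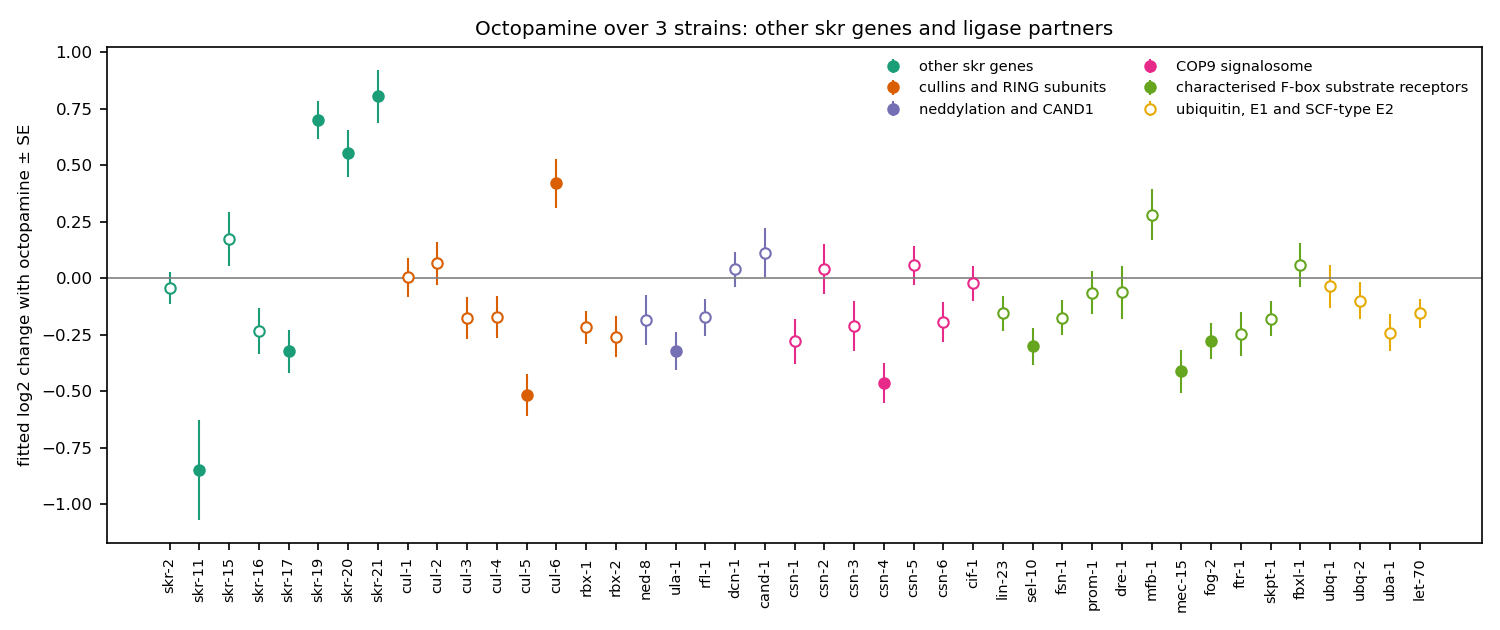
Fitted log2 change with octopamine over the 3 strains (vertical axis, bars are the SE of the additive model) for skr genes that are not members and for ligase partners, coloured by list. Filled points passed an adjusted p of 0.05. The skr-20, skr-19 and skr-21 points lie at 0.55 to 0.80, cul-6 at 0.42, and the other filled points are below 0.

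Because SKR-3, SKR-4 and SKR-5 belong to the response to intracellular pathogens, other genes of that response were read as well. Of 22 listed, 18 had a probe set and 5 passed the filter on low values, of which 1 rose and 1 fell. The reporter gene pals-5 was among those below the filter, at intensities of 5.21 to 6.73 on all arrays, and so was pals-1, at 7.61 to 9.15. Also below it, fbxa-158 had ratios of 0.69 in daf-16 animals, 0.37 in the receptor mutant and 0.84 in N2. Those of F26F2.3 were 0.52, 0.82 and 0.42. In the other direction, chil-27 had -0.28, -0.34 and -0.28, and fbxa-75 had -0.33, -0.06 and -0.01. Ratios of such dim signals are uncertain, and none of these genes was tested. The gene eol-1, whose protein is related to the mammalian decapping enzyme DXO, rose by 0.91 ± 0.20 (SE). Its ratios were 0.87 in daf-16 animals, 0.36 in the receptor mutant and 1.51 in N2, and without the N2 arrays its adjusted p was 0.058 by limma. The gene sdz-6 fell by 0.89 on the log2 scale, with an SE of 0.11. The regulator pals-22 had 0.40, 1.03 and 0.07 and did not pass.

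Over the 6 arrays, the genes with profiles most like the mean of skr-7, skr-8, skr-9, skr-10, skr-13 and skr-14 were fbxa-150, fbxb-35, tsp-2, C05D9.7 and scrm-4. Their root mean square distances were 0.07 to 0.08 on the log2 scale, where the median gene had 0.35. The first 2 encode F-box proteins, but the share of F-box genes among all genes was not counted, so nothing is read from that. The ratios of fbxb-35 were 0.21 in daf-16 animals, -0.10 in the receptor mutant and 0.62 in N2, and those of fbxa-150 were 0.30, 0.10 and 0.55. Those of tsp-2, a tetraspanin gene, were 0.50, -0.04 and 0.68. The genes most like the mean of skr-3, skr-4 and skr-5 were kgb-2, nfm-1, thn-3, C25F6.1 and W04C9.6, at distances of 0.05 to 0.07 against a median of 0.30. That mean profile is led by skr-5, which spans the widest range of the trio.

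Markers of many tissues were detected, as in the whole animals that the labels name: all 8 markers of intestine, body wall muscle and neurons, and all 10 of germline and oocytes, passed the filter on low values, as did 6 of 9 sperm markers. The summed level of the 8 intestine markers was 11169 and 12304 in treated and untreated daf-16 animals, 9347 and 13377 in the receptor mutant, and 10141 and 11223 in N2. Like skr-9, this sum was highest in the untreated receptor mutant and lower there with octopamine, by -0.52 on the log2 scale. In N2 the sum was lower with octopamine by -0.15, where the 6 skr genes were higher. A sum follows its brightest genes, and the median ratio of the intestine markers was 0.01 in N2. In daf-16 animals that median was 0.02 and in the receptor mutant -0.24. Between untreated receptor mutants and untreated N2, summed levels differed by -0.49 for 8 body wall muscle markers, -0.48 for 9 sperm markers, -0.37 for 8 hypodermis markers, -0.14 for 10 germline and oocyte markers and 0.25 for the intestine markers. Of 6 embryo markers tested 3 rose, where 7.37% of all genes did, and 8 had a probe set. The sum of the 8 in untreated receptor mutants exceeded that in untreated N2 by 0.94. Octopamine ratios of that sum were 1.20 in daf-16 animals, 1.41 in the receptor mutant and 1.48 in N2. Most of it was his-24, a linker histone gene: the other 7 summed to 258 and 221 in the treated and untreated receptor mutant, against 205 and 190 in N2. RNA quality was read from control probe sets at each end of a transcript. The 3' to 5' ratio for ubiquitin was 5.74 to 6.23 on the treated arrays and 5.32 to 5.48 on the untreated ones, with no overlap, and that for actin was 1.79 to 2.00 and 1.69 to 2.14. The part of these differences in the skr values was not tested.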

How the data were processed

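Per the labels' protocols, RNA was prepared with TRIzol and given a biotin label by 3' IVT. The values the authors deposited are linear intensities, with each probe set measured once per array; their summarisation, normalization and genome build are not given in the sources used here. Control probe sets (77) were dropped. Of the rest, 20766 had 1 gene, 887 had several (not assigned) and 895 had none, and 20701 Entrez identifiers matched RefSeq WBcel235, used only for names and gene order.

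Intensities were put on the log2 scale without a pseudocount and centred on each array's median. The probe set with the highest mean stood for a gene, and 10251 genes passed the filter on low values. limma 3.58.1 (R 4.3.3) fitted strain and octopamine on all 6 arrays, with a mean-variance trend (6.28 prior degrees of freedom) and Benjamini-Hochberg adjustment at 0.05. The octopamine term of this fit was tested on simulated data with independent noise and no strain effects. Such data meet the assumptions of the fit by design, so that test cannot show how its p-values hold on these arrays. The strain tests and the fits that leave out a strain were not covered. The labels name no separate cultures, so p-values reflect the spread among these arrays, which may be technical. Their number limits the precision.

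The members and gene lists were chosen with earlier results of these data known. Named were all members, the first gene and up to 3 genes passing in each direction per list, and 5 genes nearest to each mean profile. Neighbours of the runs, skr-15, skr-2, pals-1, pals-5, pals-22, fbxa-158, F26F2.3, chil-27, fbxa-75, rbx-1, rbx-2, ned-8 and csn-1 were added after their values were seen. Alternatives covered scaling, pseudocount, filter, probe set choice, the trend and the strains fitted. The rest used pandas 2.3.3, numpy 2.4.6 and matplotlib 3.10.9 under Python 3.11.15.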

Additional observations from a re-analysis of the deposited data

Results flagged for a closer look

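Octopamine ratios of opposite sign in different strains were found for 6 of the 10 members, beside 42.4% of the 10251 genes that passed the filter. Each strain has 1 treated and 1 untreated array, and the difference between strains was not tested. The log2 ratio of skr-8 was -0.094 in the receptor mutant and 0.94 in N2, that of skr-9 was -0.36 and 0.65, that of skr-13 was -0.22 and 0.68, and that of skr-14 was -0.072 and 0.51. For skr-4 it was -0.17 in daf-16 animals and 0.13 in N2, and for skr-3 it was -0.038 in daf-16 animals and 0.12 in the receptor mutant. After quantile normalization skr-3, skr-8 and skr-14 had no opposite signs between these strains.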

How the results depend on the processing

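The median octopamine ratio over the 10 members, averaged over strains, was 0.31 with an SD of 0.24 between strains, and it ranged from 0.21 to 0.45 over all alternatives. Of single members' mean ratios, 3 moved by more than the SD between strains: skr-1 and skr-3 to 0.25 and 0.15 after quantile normalization, and skr-5 with the pseudocount of 16. Leaving out a strain cannot move a mean that far, so it says nothing of stability by that measure. Without the N2 arrays the mean ratio was -0.096 for skr-9, 0.080 for skr-13 and 0.15 for skr-8, against 0.15, 0.28 and 0.41 over the 3 strains. Without the receptor mutant arrays it was 0.41, 0.53 and 0.67. Treated and untreated arrays were paired only by strain, through the strain term of the model. The labels give every group the single replicate number 1, so no finer pairing was possible.

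In the strain tests, 0 members passed under each alternative, except that 2 passed in the receptor mutant against N2 without the daf-16 arrays. Genes passing in that comparison numbered 269, against 169 without centring, 145 after quantile normalization, 87 without the mean-variance trend and 687 without the daf-16 arrays. For daf-16 against N2, 25 genes passed, against 6 without the trend and 147 without the receptor mutant arrays.

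Of 48 listed genes outside the members, 5 rose and 9 fell with octopamine. The rises became 3 with suffix-free probe sets only, where 35 were tested, and cul-6 and skr-20 were not among those 35. With no filter the rises became 7, where 62 were tested. The falls became 5 without centring or without the trend, 4 after quantile normalization and 3 without the N2 arrays. Of all genes 755 rose, against 482 with suffix-free probe sets and 322 without the N2 arrays, and 1511 fell, against 1004 without centring, 877 after quantile normalization and 729 without the N2 arrays. The cause of these shifts was not tested, and some of these alternatives fitted fewer genes or arrays. Signals near 15.6 limit skr-5 and most genes of the pathogen response.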
